A study of Caenorhabditis elegans with 2 samples.

Results

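The GATA transcription factors described here are 10 genes of the nematode Caenorhabditis elegans, chosen by name and matched by symbol to 10 of the 19973 nuclear protein-coding genes of the WBcel235 assembly. The gut class held elt-2, elt-7, end-1 and end-3, the epidermal class elt-1, elt-3, elt-6 and egl-18, and 2 genes, elt-4 and med-1, were put in neither. The data are chromatin immunoprecipitation and sequencing (ChIP-seq) regions of CRH-2, a CREB-type transcription factor with a leucine zipper, in whole mixed-sex L2 larvae of strain OP425. These worms carry unc-119(tm4063) III and the integrated transgene wgIs425, in which crh-2 is fused at its C terminus to a GFP-FLAG tag; the promoter of the transgene is not given in the sources used here. The labels give 1 group of 2 biological replicates, with no second condition, so the only comparison is between classes of genes. In whole larvae, binding in a few cells cannot be told apart from weak binding in many.

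GATA factors are zinc finger proteins named for the letters GATA, which most of them bind, and many of them set the fate of whole tissues. In the worm gut lineage, med-1 acts in the early embryo above end-3 and end-1, which specify the endoderm, and elt-2 with its partner elt-7 then maintains intestinal differentiation through larval and adult life. In the epidermis, elt-1 specifies the major epidermal cells of the embryo, elt-3 acts below it in the syncytial hypodermis, and egl-18 and elt-6 keep the seam cells, the stem-like cells of the larval epidermis, from differentiating. elt-4 is a short relative of elt-2 with no established role.

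Each gene was searched from 3000 bp upstream of its annotated start to its end, and a region was counted where its summit, the base of highest signal, fell in that window. In 5 of the 10 windows lay a replicated summit, that is, one from the list of 5735 regions the authors kept after their irreproducible discovery rate procedure. Over all 19973 protein-coding genes the share of windows with such a summit was 29.8%. Of the 5735 regions 5704 overlapped a region in both replicates, so the name does not mean that every one was found in both. The 5 windows held 6 replicated summits, 3 in the gut class (elt-2, end-1 and end-3) and 3 in the epidermal class (elt-1 with 1 and elt-3 with 2). elt-7, elt-6, egl-18, elt-4 and med-1 held none. Measured from the annotated gene start, only elt-2 had its summit close in front of its own gene. The elt-1 summit lay inside the gene but 273 bp upstream of the nearest elt-1 transcript start.

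The bases at 4 of the 6 summits are shown because they differ in which known sequences they hold and in which gene they lie nearest to. Each is read on the plus strand of WBcel235 (ce11), on which all 10 genes lie, and capitals mark matches to the letters searched. These were the GATA sites AGATAA or AGATAG as well as TGATAA or TGATAG, the CREB core TGACG, the CREB palindrome TGACGTCA, the CREB3 and XBP1 type sites TGACGTGG and TGACGTGT, the E-box CACGTG and the repeat GAGAGAGA, on both strands and within 50 bp of the summit. The core TGACG lies inside the 3 longer CREB-type sequences, so one place can match both.
elt-2, chrX:10480733-10480833: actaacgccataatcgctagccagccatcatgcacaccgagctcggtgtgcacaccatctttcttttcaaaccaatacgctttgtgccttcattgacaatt
end-3 window, chrV:14012256-14012332: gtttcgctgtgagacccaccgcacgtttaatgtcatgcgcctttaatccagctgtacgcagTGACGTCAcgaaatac
elt-1, chrIV:9615667-9615767: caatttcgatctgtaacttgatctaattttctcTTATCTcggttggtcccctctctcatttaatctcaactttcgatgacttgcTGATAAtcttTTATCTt
elt-3, downstream summit, chrX:13937523-13937623: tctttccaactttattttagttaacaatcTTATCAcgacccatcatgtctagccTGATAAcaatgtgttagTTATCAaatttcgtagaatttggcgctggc
The first holds none of the sequences searched. The second ends just before the annotated start of the neighbouring gene aip-1 and holds a complete CREB palindrome starting 11 bp from the summit. The third and the fourth hold 3 GATA sites each.

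**Figure D1:**
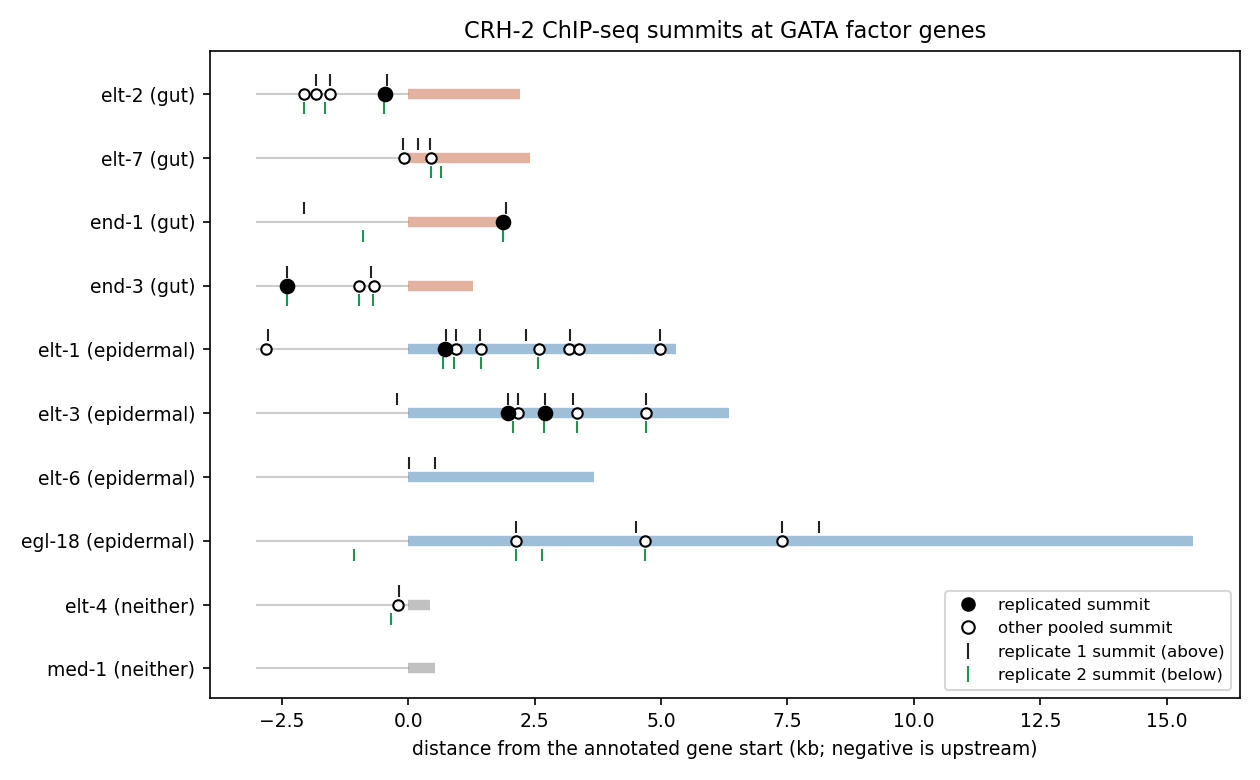
Position of each summit along the 10 genes, as distance in kb from the annotated gene start, with gut genes on top, epidermal genes below them and the genes in neither class last. Thick bars are gene bodies, thin lines the 3000 bp upstream, filled circles the 6 replicated summits, open circles the other 21 pooled summits, and ticks the summits of replicate 1 (above) and replicate 2 (below).

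elt-2, the gene of the main differentiation factor of the intestine, lies at X 10481240 to 10483441 (WBGene00001250, 2202 bp). Its replicated peak, 376 bp wide at X 10480595 to 10480970, had its summit 457 bp upstream of the gene start in intergenic sequence, and the nearest start of another protein-coding gene, C39B10.7, was 3910 bp away. The authors' pooled signal there was 82.1, rank 3990 of 5735. The signal was 38 in replicate 1, rank 4942 of 30000, and 44.4 in replicate 2, rank 3510. In units of each replicate's median over the replicated peaks this was a relative signal of 0.775 ± 0.138 (SD, n = 2), below the median of all peaks in both replicates. The replicate summits lay 32 bp downstream and 30 bp upstream of the pooled one. Another 3 pooled regions lay between 2068 and 1551 bp upstream, with signals of 21.9 to 28.2, and the strongest region there was at rank 6188 for replicate 1 and at 16126 for replicate 2.

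The strongest region in any of the 10 windows was that of end-3, and it lay at other genes. end-3 is at V 14014695 to 14015980 (WBGene00001311), and its replicated peak, a narrow one of 137 bp at V 14012222 to 14012358, had its summit 2389 bp upstream. That base lies 27 bp upstream of aip-1, which encodes an arsenic-inducible AN1-type zinc finger protein, and in the promoter window (1000 bp upstream to 250 bp downstream of a start) of ddx-17, a DEAD-box helicase gene that runs the other way. Its pooled signal of 223 had rank 694, above 87.9% of the replicated peaks. The signal was 128 in replicate 1, rank 600, and 95.3 in replicate 2, rank 899, a relative signal of 2.08 ± 0.293 (SD, n = 2). The replicate summits fell 7 bp and 0 bp from the pooled one. A summit at a promoter shared by 2 genes and lying inside the upstream window of end-3 does not tell which gene it acts on. Nearer to end-3 itself the pooled list held summits 973 and 687 bp upstream, with signals of 32.7 and 34.1 and ranks 12282 and 11727, both below the replicated list.

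end-1, the paralog and neighbour of end-3, at V 13985128 to 13987074 (WBGene00001310), had its replicated summit at the far end of the gene. The peak, V 13986807 to 13987182, had its summit 1867 bp downstream of the start, in the last coding exon and 79 bp before the gene end. The pooled signal was 82.8, rank 3940. The signal was 41.6 in replicate 1, rank 4372, and 38.7 in replicate 2, rank 4279, a relative signal of 0.749 ± 0.0138 (SD, n = 2), so that the replicates gave nearly the same value. The summit in replicate 1 lay 71 bp further downstream, in the 3′ UTR. Upstream of end-1 neither the replicated nor the pooled list held a summit, and each replicate held 1 weak region, at rank 19392 for replicate 1 and 29799 for replicate 2, at different places.

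elt-7, at V 4770670 to 4773086 (WBGene00015981), had no replicated summit. Its strongest pooled region lay in an intron, 457 bp downstream of the start, with a signal of 43.1 and rank 8898. The replicates differed in strength there. Replicate 2 had a region at that base with a signal of 29.9 and rank 6054, just past the number of regions in the replicated list. In replicate 1 the strongest region overlapping the pooled one had its summit at 201 bp, a signal of 16.4 and rank 14268. A slightly weaker region of replicate 1 lay closer to the pooled summit, at 428 bp, with a signal of 15.5 and rank 15396. With the strongest overlapping regions the relative signal was 0.439 ± 0.208 (SD, n = 2). A weaker pooled region lay 87 bp upstream of elt-7, also within the promoter window of C18G1.9.

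Among epidermal genes, elt-1 (IV 9614995 to 9620280, WBGene00001249) had a replicated summit in an intron, 722 bp downstream of the gene start. The gene has 6 annotated transcripts, and the summit was 273 bp upstream of the nearest transcript start, so it can also be read as lying in front of the shorter transcripts. The peak, IV 9615529 to 9615904, had a pooled signal of 79.1, rank 4218. The signal was 46.4 in replicate 1, rank 3713, and 34.8 in replicate 2, rank 4971, a relative signal of 0.754 ± 0.101 (SD, n = 2). With 8 pooled summits the window of elt-1 held the most of the 10 genes, the other 7 with signals from 17.4 to 33.3.

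elt-3 (X 13934874 to 13941216, WBGene00001251) was the only gene of the 10 with more than 1 replicated summit, and both lay in an intron. The upstream one, at X 13936655 to 13937030, had its summit 1969 bp downstream of the gene start, a pooled signal of 97.3 and rank 3117. Its signal was 58 in replicate 1, rank 2690, and 39.7 in replicate 2, rank 4100, where the summit was 107 bp further downstream, a relative signal of 0.906 ± 0.179 (SD, n = 2). The downstream one, at X 13937385 to 13937760, had its summit at 2699 bp, 1170 bp upstream of the nearest transcript start of elt-3, a pooled signal of 75.2 and rank 4503. Its signal was 34.5 in replicate 1, rank 5602, and 41.8 in replicate 2, rank 3827, a relative signal of 0.718 ± 0.147 (SD, n = 2). The order of the 2 elt-3 peaks by relative signal thus turned round between the replicates. A further pooled region in an intron, 4696 bp downstream of the start, was the strongest in any window to miss the replicated list, with a signal of 53.6 and rank 6824, at rank 8162 for replicate 1 and 6567 for replicate 2.

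**Figure D2:**
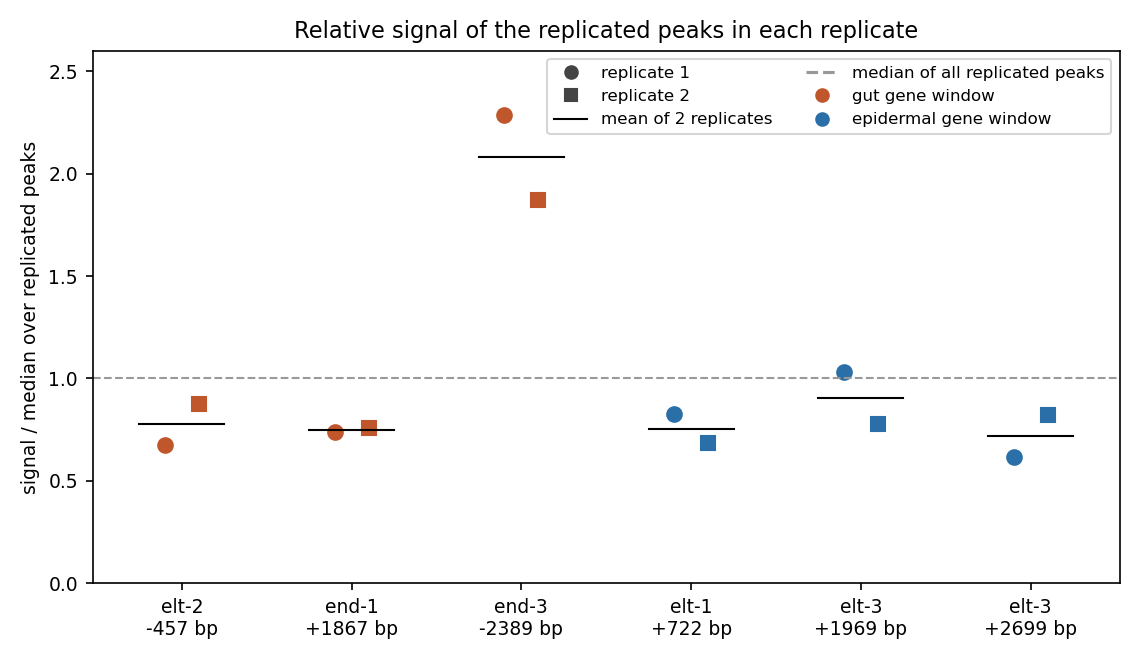
Relative signal (signal of a region over the median of the replicated peaks in the same library, linear axis from 0) of the 6 replicated peaks, gut windows left and epidermal windows right, with 1 point per replicate and a line at their mean. The end-3 peak lies at 2.29 and 1.87, and every other point lies between 0.614 and 1.03.

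The seam cell genes egl-18 and elt-6 lie next to each other on chromosome IV, 136 bp apart, and 2864 bp of their windows overlap. egl-18 (IV 1902322 to 1917840, WBGene00001186) has the longest window of the 10, 18519 bp, and held 3 pooled summits in introns, 1 of them also in an exon of the non-coding RNA F55A8.3, with signals from 22.9 to 27 and ranks from 15556 to 19134. Its strongest region was at rank 13041 for replicate 1 and at 11797 for replicate 2, at different places in the gene. elt-6 (IV 1917977 to 1921643, WBGene00001253) had no summit in the replicated and pooled lists or in replicate 2, and 2 weak ones in replicate 1, the stronger of them 8 bp downstream of the start with a signal of 13.9 and rank 17674.

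Of the genes in neither class, elt-4 (X 10475527 to 10475959, WBGene00001252) had 1 pooled summit, 200 bp upstream, with a signal of 32.1 and rank 12529. The ranks were 11997 for replicate 1 and 13571 for replicate 2, with a relative signal of 0.326 ± 0.0129 (SD, n = 2). med-1 (X 12430609 to 12431133, WBGene00003180) held no summit in any of the 4 lists. The pooled list and those of the single replicates hold 30000 regions each and reach far weaker ones. A pooled summit lay in 8 of the 10 windows, against 62.5% of all genes. The lists of the single replicates held one in 9 windows in replicate 1, against 64.8% of all genes, and in 8 windows in replicate 2, against 62.8%.

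Both replicates held the same 6 peaks when each was used alone. Among as many of its strongest regions as there are replicated peaks, each replicate had a summit in the windows of elt-2, end-1, end-3, elt-1 and elt-3, again 3 in the gut class and 3 in the epidermal class. All genes had such a summit in 29.1% of windows in replicate 1 and 29.1% in replicate 2. The agreement is not independent of the replicated list, which was made from the same 2 libraries. Apart from the end-3 window, these regions were of middle or low strength for replicated peaks: among the stronger 2867 peaks, only the end-3 window kept a summit, 1 of 10 against 17.8% of all genes.

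**Figure D3:**
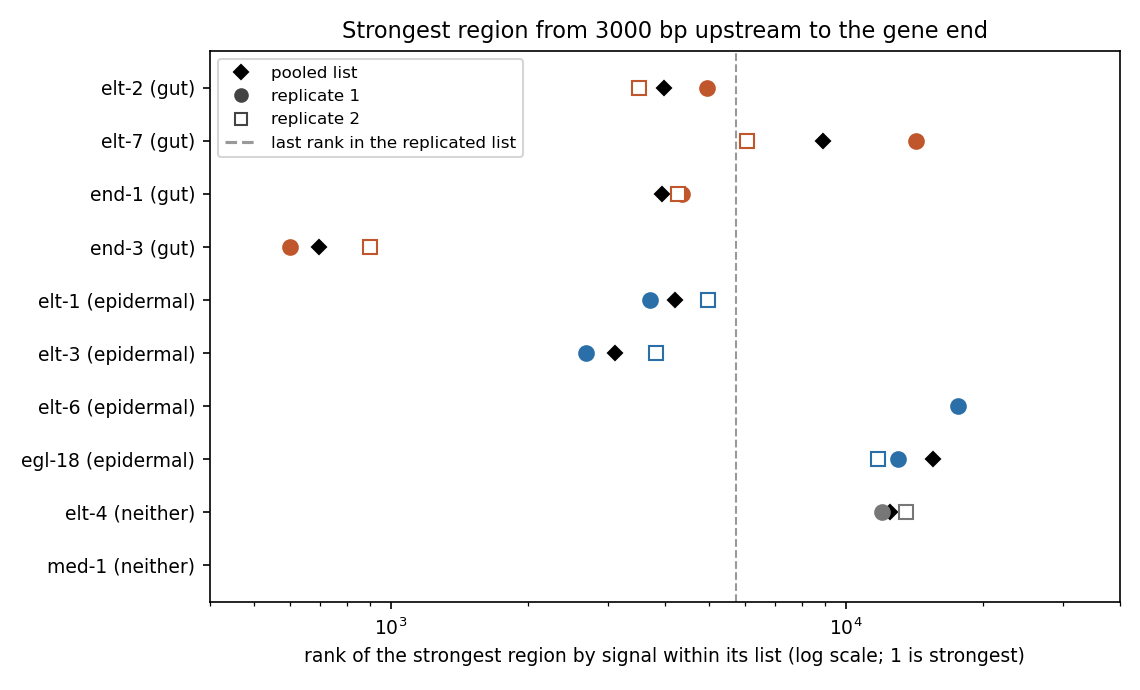
Rank by signal of the strongest region in the window of each gene, on a log axis where 1 is the strongest, in the pooled list and in both replicates; the dashed line is rank 5735, the length of the replicated list. The 5 genes elt-2, end-1, end-3, elt-1 and elt-3 lie left of the line in all 3 lists, elt-7 comes next to it in replicate 2 only, and med-1 has no point.

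Set beside each other, gut windows held 3 replicated summits in 19.852 kb, or 0.151 per kb, and epidermal windows 3 in 42.815 kb, or 0.0701 per kb, while the windows of all genes gave 0.065 per kb. The summit was in the window of 3 of 4 gut genes and of 2 of 4 epidermal genes. The median of the strongest pooled signal per gene was 82.5 in the gut class, 53.1 in the epidermal class and 26 over all genes. In units of the median over the replicated peaks that difference was 0.286, and it was 0.141 without replicate 2 and 0.304 without replicate 1. The epidermal median counts elt-6, which had no pooled region, as 0. With elt-6 and egl-18 taken as 1 locus the difference was 0.0324. It was 0.0927 with 2000 bp upstream or with the window ended at the next gene, both of which leave out the peak in the end-3 window, and 0 among the stronger 2867 peaks. By its strongest pooled region, end-3 stood above 94.7% of all protein-coding genes, end-1 above 77.3%, elt-2 above 77.1% and elt-7 above 61.6%. Of epidermal genes, elt-3 stood above 81% of all genes, elt-1 above 76.1% and egl-18 above 51.0%, while elt-6 had no pooled region. In the whole lists, gut windows held 10 summits in each replicate, while epidermal windows held 19 in replicate 1 and 12 in replicate 2, so that the replicates differed in the number of weak epidermal regions. No test was made of the difference, because genes of 1 genome are not replicates of a tissue. Class and window length cannot be told apart here: gut windows ran from 4286 to 5417 bp and epidermal ones from 6667 to 18519 bp. Of members with windows up to 6 kb 3 of 6 held a replicated summit, against 24.9% of all genes of that length, and of those with windows over 6 kb 2 of 4, against 40.2%.

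Of the 3 gut summits, those in the elt-2 and end-3 windows lay upstream of the gene and that of end-1 in the gene body. All 3 epidermal summits lay in introns of the gene body, although from the nearest transcript start of its own gene the elt-1 summit was 273 bp upstream and the downstream elt-3 summit 1170 bp upstream. With 3 summits in each class no difference in position was tested. In the promoter window alone (1000 bp before to 250 bp after the gene start) only elt-2 held a replicated summit, 1 of 10 members against 17.8% of all genes. Without the end-3 peak, which lies at aip-1 and ddx-17, the gut class had 2 summits, 1 upstream of its gene and 1 at the end of its gene.

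The sequences within 50 bp of the pooled summits split the summits, and not the genes, in another way. The downstream elt-3 summit held GATA sites and the upstream one did not. The CREB palindrome TGACGTCA was found at 1 of the 6 summits, that of the end-3 window, and at 1.29% of all 5735 replicated summits; this summit also held the core TGACG at 3 places, 2 of them within the palindrome, against at least 1 at 21.5% of all summits. GATA sites were found at 3 of the 6 summits, in end-1 (2 overlapping matches), elt-1 and the downstream elt-3 peak (3 each), and at 31.2% of all summits. Among stretches of the same length just upstream of all 19973 gene starts, 0.3% held the palindrome, 9.45% the core and 25.6% a GATA site. The sites TGACGTGG and TGACGTGT (3.57% of all summits and 0.511% of promoter stretches), CACGTG (7.36% and 2.47%) and GAGAGAGA (6.43% and 1.38%) matched at none of the 6. A match is a description of the letters and not of binding. Only the bases around the pooled summit were searched. The end-1 summit in replicate 1, 71 bp away, and the upstream elt-3 summit in replicate 2, 107 bp away, lay outside them. GC content within 50 bp was 46.5% at elt-2 and 49.5% at the end-3 window, against 29.7% at end-1, 34.7% at elt-1 and 36.6% and 35.6% at elt-3, with a median of 42.6% over all replicated summits. The 3 summits with GATA sites had the lowest GC content of the 6. The part of GC content in the signal and in the matches was not tested.

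In the translated longest coding sequence of each gene, the zinc finger spacing of GATA factors (2 cysteines with 2 residues between them, 16 to 19 residues, and 2 more cysteines with 2 residues between them) was found in 9 of the 10, with 2 fingers in elt-1 and elt-2. In end-1 it was found only with 4 residues between the first 2 cysteines. Over the 25 residues of the last finger, elt-4 was 96% identical to elt-2, elt-6 84% to egl-18, elt-7 64% to elt-2 and elt-1 72% to elt-3. The closest match of elt-7 was the epidermal elt-3, at 68%. The lowest identity was 48%, between end-3 and elt-6, and elt-2 and end-3 shared 56%; end-1 and med-1, whose fingers have other spacings, were not compared. Of the 4 pairs named first, elt-1 and elt-3 both held replicated summits, elt-2 did where elt-4 and elt-7 did not, and elt-6 and egl-18 both lacked one.

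Genes around the GATA factors were counted in the same windows, against the 29.8% of all genes. The lists were chosen with earlier results of these data known, and no test was made of these counts. Of 10 genes of endoderm specification 6 held a replicated summit. The strongest were at skn-1, the maternal bZIP factor that starts the mesendoderm program, at 160 and relative to the median 1.49 ± 0.422 (SD, n = 2), wrm-1, a beta-catenin, at 131, and plp-1 at 103. The summit at plp-1 also lay in the promoter window of F45E4.6. Of 18 intestinal genes under gut GATA factors 10 held one, with the highest signals at spl-1 (282), act-5 (216) and asp-1 (204); the summit at spl-1, 2398 bp upstream, lay in the promoter window of the ribosomal protein gene rps-24. Of 12 epidermal and seam regulators 1 did, blmp-1 at 113. In the pooled list, 9 of the 10 endoderm genes, 16 of the 18 intestinal genes and 10 of the 12 epidermal and seam genes had a summit, against 62.5% of all genes. The median windows were 7810.5 bp for the endoderm list, 5996 bp for the intestinal list and 7512 bp for the epidermal list, and the share of all genes with a replicated summit was 24.9% for windows up to 6 kb and 40.2% for longer ones; the part of window length in these counts was not tested. Among 3 other genes with GATA-type fingers, whose median window was longer at 10809 bp, egl-27, a chromatin regulator of the MTA family, held 9 replicated summits. The strongest of them lay 7873 bp downstream of the gene start, with a signal of 220. lin-40, a relative of egl-27, held 1 with a signal of 90.5, while med-2, the duplicate of med-1 and also on the endoderm list, held none.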

How the data were processed

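Both libraries are biological replicates of 1 group, per the labels, and whether they came from separate cultures is not stated further. The region lists on the ce11 build are the authors' deposited files, in narrowPeak format: each replicate, both pooled, and the list kept after the irreproducible discovery rate (IDR) procedure, called replicated here. The authors' signal per region has no stated scale and was used to describe and rank regions within a list. The deposited −log10 q-value was not used to choose regions. Caller and aligner, with their versions, and the depth were not given in the sources used here, and no control library was analysed here. ce10 lists were not used. In this work, regions were matched to WBcel235 with Ensembl release 115 annotation. The replicate value of a peak is the strongest overlapping region. All 10 members, the replicated summits in their windows, and up to 3 genes per further list are named. Members, lists and motifs were chosen with earlier results of these data known. The window counter and motif search were tested on simulated data. Alternatives changed the window, list, overlap, classes and replicate. No tests were made, and 0 columns were left out. Python 3.11.15, numpy 2.4.6, pandas 2.3.3 and matplotlib 3.10.9 were used.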

Additional observations from a re-analysis of the deposited data

How the results depend on the processing

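The 6 summits and the 5 genes that hold them were the same when a region needed only to overlap the window by 1 bp or by 50%, and in each replicate alone. Within 1000 bp before and 250 bp after the gene start, 1 member (elt-2) held a summit, with 1 in the gut class and 0 in the epidermal class. With 3000 bp upstream and no gene body, 2 members did and the epidermal class had 0. With 2000 bp upstream, or with the window ended at the next gene, end-3 lost its summit, leaving 4 members with 2 gut and 3 epidermal summits. With 5000 bp upstream 6 members held one, med-1 being the addition, with 4 gut and 4 epidermal summits. Among the stronger 2867 peaks 1 member did, with 1 gut and 0 epidermal summits. In the whole pooled list 8 members did, with 10 gut and 16 epidermal summits. By window length, a split chosen after seeing the data, 3 members up to 6 kb and 2 members over 6 kb did. The share over all genes was 17.8% near the start, 17.8% among the stronger peaks and 62.5% in the pooled list. It was 24.9% for windows up to 6 kb and 40.2% for longer ones. For the other windows that share was not computed, so the counts of 2, 4 and 6 members cannot be set against all genes. The gut minus epidermal difference in summits per kb, 0.081, was positive in every alternative run. It was 0.1998 near the start, 0.167 without gene bodies, 0.0489 with 2000 bp and 0.0649 with 5000 bp upstream, 0.0512 with the window ended at the next gene, 0.0504 in the stronger peaks, 0.13 in the pooled list, 0.0588 with elt-4 in the gut class and 0.076 with elt-6 and egl-18 as 1 locus. No alternative put med-1, which held no summit in the main window, in the gut class. Most runs share the same few summits, and the value in the stronger peaks rests on the end-3 window peak alone. Gut windows as reported were shorter in total, 19.852 kb against 42.815 kb. With 2000 bp upstream the difference was positive although the gut class held 2 summits and the epidermal class 3. Where the window takes in the gene, class and window length cannot be told apart. The difference in the median strongest pooled signal per gene, in units of the median of the 5735 strongest regions, was 0.286. It ranged from 0.141 to 0.304 when either replicate was left out, and was 0.521 without gene bodies, 0.0927 with 2000 bp or with the window ended at the next gene, 0.5 with 5000 bp, 0 in the stronger peaks and 0.0324 with elt-6 and egl-18 as 1 locus. The cause was not tested. No paired analysis was possible because there is 1 group. Depth is unknown.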

Other observations

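The pooled elt-2 summit falls in a perfect inverted repeat of 22 bp, X 10480763 to 10480784, which reads the same on both strands and runs from 20 bp before to 1 bp after the pooled summit. The summits of the single replicates lie outside the repeat, 32 bp downstream (replicate 1) and 30 bp upstream (replicate 2) of the pooled one. The repeat was noticed after the sequence had been read, and it holds none of the motifs searched.
elt-2 repeat, chrX:10480763-10480784: TGCACACCGAGCTCGGTGTGCA
An inverted repeat at least as long lay within 50 bp of 4 of the 5735 replicated summits (0.0697%) and in 20 of 19973 stretches of the same length upstream of gene starts (0.1%), so long repeats of this kind were rare in both. The median of the longest one at replicated summits was 6 bp, and the other 5 summits in the windows of GATA factor genes had 4 to 10 bp.

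Going out to 5000 bp upstream brought in 3 further replicated summits. One lay 3469 bp upstream of elt-2, in the 3′ UTR of C39B10.7, with a signal of 135, rank 1870 and 1.24 ± 0.045 (SD, n = 2) times the median, stronger in the pooled list than the one in front of elt-2. Another lay 3823 bp upstream of elt-1 in intergenic sequence, with a signal of 87.6, rank 3646 and 0.774 ± 0.0062 (SD, n = 2) times the median. The last lay 4964 bp upstream of med-1, with a signal of 73.1, rank 4677 and 0.716 ± 0.251 (SD, n = 2) times the median, and is the only replicated summit found for that gene in any window tried.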
